A study of Mus musculus with 10 samples.

Results

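STAT transcription factors and the feedback inhibitors of the SOCS family were followed through 7 genes in cells from the distal tips of mouse embryonic lungs. These were the STAT genes *Stat3*, *Stat5a*, *Stat5b* and *Stat6*, and the inhibitor genes *Socs2*, *Socs3* and *Cish*, all taken by gene symbol from the 17813 genes measured. The E17.5 group comprised 5 arrays of GFP+ cells isolated on a cell sorter, after trypsin digestion, from embryos labelled *Id2-CreER; Rosa26R-fGFP*, whose mothers received tamoxifen (150 µg per g) at E16.5. The E11.5 group comprised 5 arrays of tip epithelium microdissected after a short dispase treatment from embryos that carry the same genotype label. In this line *Id2* drives a tamoxifen-dependent Cre recombinase, so the sorted cells are those that expressed *Id2* around labelling, along with some of their direct descendants. Transgenic mice of the study were kept on a C57Bl/6J background, and the sources used here do not name the sex of the embryos. Stage, way of isolation and tamoxifen exposure cannot be told apart. Arrays of 1 stage are labelled as biological replicates, with no word on litters, so the p-values measure the spread between these samples.

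STAT proteins wait in the cytoplasm until a cytokine or growth factor receptor, through the Janus kinases bound to it, phosphorylates them on a tyrosine. They then pair, enter the nucleus and bind short palindromic sites near their target genes. Among these targets are genes of the SOCS family, including *Cish*, whose proteins bind the activated receptor or kinase and damp the signal, so that a STAT and its inhibitor form a negative feedback loop. In the lung, STAT3 is known for its part in epithelial repair and in the surfactant system. An mRNA level does not show whether a STAT protein is phosphorylated.

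All values given here are log2 signals of Affymetrix probe sets as deposited, and 1 unit is a doubling. The median probe set of an array was at 7.14 to 7.23 on the arrays of E17.5 and at 7.01 to 7.14 on those of E11.5. Each gene was tested between the stages in limma, and calls rest on an adjusted p (Benjamini-Hochberg, over all genes) under 0.05. By that rule 68.4% of all genes were called, 36.9% as higher and 31.5% as lower at E17.5, so that a call by itself sets no gene apart. The balance of directions depended on the scaling, since quantile normalization gave 31.9% as higher and 39% as lower, and median centring of the arrays 33.2% and 36.9% in the same order. Of the 7 genes, 5 were higher (*Stat5a*, *Stat6*, *Socs2*, *Socs3* and *Cish*) and 2 were lower (*Stat3* and *Stat5b*). The E17.5 arrays lay wholly above the E11.5 arrays for those 5 and wholly below them for the other 2, which was the case for 32.3% and 26.3% of all genes. Several of these genes were picked out by the study on these same samples, so their calls are not independent evidence of a direction. Each rests on 1 probe set, as do 99.1% of all genes. Where a gene had more than 1 (167 genes), the log2 differences of its probe sets were over 2 apart in 28.1%. The table holds no detection calls, so a fold is a ratio of measured signals, and where the lower group is dim it is not known whether the transcript was detected there.

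The epithelial label was borne out at both stages, with the mean log2 signal of 11 pan-epithelial genes at 12.62 to 12.91 in the sorted cells and 12.08 to 12.32 in the dissected tips. *Id2*, which drives the Cre, was at 12.79 ± 0.28 at E17.5 and 10.69 ± 0.24 at E11.5 (SD, n = 5 each). Of 8 tip markers 3 were higher and 3 were lower, and *Shh* fell (log2 difference -3.47), while *Sox9* averaged 9.58 ± 0.37 at E17.5 and 9.60 ± 0.09 at E11.5 (adjusted p = 0.92 from limma). Of 15 leukocyte and macrophage markers 13 were higher and 1 was lower, with list means of 8.86 to 9.54 over the E17.5 arrays and 5.53 to 6.34 over those of E11.5. *Ptprc*, which encodes the leukocyte antigen CD45, averaged 8.85 ± 0.22 at E17.5 and 4.25 ± 0.27 at E11.5, and *Lyz2*, *Cd53* and *Cd14* had log2 differences of 7.53, 6.47 and 4.74. All 9 endothelial markers were higher, with list means of 9.17 to 11.23 (E17.5) and 4.97 to 6.24 (E11.5). All 12 immediate early genes, which respond within minutes to many stimuli including tissue handling, were higher, with list means of 12.80 to 13.03 (E17.5) and 7.65 to 7.92 (E11.5). Markers of differentiated epithelium were higher as well, in 8 of 9 alveolar type 2, 5 of 5 alveolar type 1 and 3 of 3 bronchiolar secretory genes, the last with list means of 12.01 to 13.12 (E17.5) and 4.19 to 4.51 (E11.5). The type 2 exception was *Lpcat1*, whose 1 probe set averaged 3.17 ± 0.10 at E17.5 and 7.90 ± 0.07 at E11.5. By staining, the study detected LPCAT1 protein in tips robustly from E16.5, so this probe set ran against the protein. Of 5 erythroid markers 4 were lower and 1 was higher, with list means of 5.34 to 6.26 (E17.5) and 8.57 to 10.07 (E11.5), and the embryonic globin gene *Hbb-y* averaged 4.79 ± 1.34 at E17.5 and 12.62 ± 0.75 at E11.5. Of 11 mesenchymal markers 4 were higher and 4 were lower, with list means of 8.31 to 9.26 (E17.5) and 7.58 to 8.65 (E11.5). The largest changes among them were rises of *Tcf21*, *Col1a2* and *Col3a1*, with log2 differences of 4.95, 2.77 and 2.12. Their means at E17.5 were 11.45, 11.79 and 12.53. The 4 that were lower, *Twist1*, *Dcn*, *Pdgfra* and *Tbx4*, had log2 differences of -1.90, -1.45, -1.21 and -1.09. The part of such cells and of handling in the changes of the 7 genes and of the pathway and target lists was not tested, and in such bulk samples fewer cells of a type and less RNA per cell cannot be told apart.

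Among the STAT genes, *Stat5a* moved most. STAT5A was first known as a mediator of prolactin in the mammary gland and also answers to growth hormone and to several interleukins. *Stat5a* had log2 signals of 10.63, 10.51, 10.58, 10.14 and 10.30 on E17.5 replicates 1 to 5, against 5.14, 5.06, 5.28, 5.19 and 5.09 on E11.5 replicates 1 to 5. The groups were 4.86 apart at their closest, while the spread within each stage was under 0.50. The mean was 10.43 ± 0.21 at E17.5 and 5.15 ± 0.09 at E11.5 (SD, n = 5 arrays each), a 38.8-fold rise (log2 difference 5.28, 95% confidence interval 5.04 to 5.51, adjusted p = 1.54e-12 from limma). It ranked 142 of 17813 genes by log2 difference. At E11.5 its probe set was dim, with only 30.7% to 32.2% of the probe sets of an array below it, which limits the fold as a measure of RNA.

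*Stat5b* moved the other way. It encodes the close paralogue of STAT5A, and both are activated by many of the same receptors. *Stat5b* had log2 signals of 5.84, 5.50, 6.08, 6.28 and 5.96 on E17.5 replicates 1 to 5, against 7.82, 7.79, 7.84, 7.85 and 7.79 on E11.5 replicates 1 to 5. The E11.5 arrays agreed within 0.06, the tightest group among the 7 genes, and the E17.5 arrays spread over 0.78. The mean was 5.93 ± 0.29 at E17.5 and 7.82 ± 0.03 at E11.5 (SD, n = 5 each), a 3.69-fold fall (log2 difference -1.88, 95% confidence interval -2.16 to -1.60, adjusted p = 4.89e-08 from limma). On the E17.5 arrays its probe set was below the median, with 35.6% to 42.8% of probe sets dimmer, which limits the fold as a measure of RNA. How unequally the 2 paralogues changed was read from the difference of their signals within each array. *Stat5a* minus *Stat5b* was 3.85 to 5.01 across the E17.5 group and -2.73 to -2.56 across the E11.5 group. The changes of the paralogues thus differed by 7.16 (standard error 0.20, two-sided exact permutation test over the 10 arrays, p = 0.00794, the smallest that 252 arrangements allow, and 0.00794 after adjustment over 2 such contrasts). The 2 genes moved in opposite directions with no overlap of arrays. This p could therefore only be the smallest, and it adds nothing to the 2 calls.

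*Stat3* also fell. STAT3 is the main mediator of interleukin 6 and its relatives, which signal through the shared receptor subunit gp130. *Stat3* had log2 signals of 5.20, 4.69, 4.81, 4.62 and 4.83 on E17.5 replicates 1 to 5, against 6.14, 5.99, 6.06, 6.15 and 6.12 on E11.5 replicates 1 to 5. All 10 values were below the median of their array, so that this probe set was among the dimmer ones at both stages, and 25.7% to 32.1% of probe sets on the E17.5 arrays were dimmer still. The mean was 4.83 ± 0.22 at E17.5 and 6.09 ± 0.07 at E11.5 (SD, n = 5 each), with a log2 difference of -1.26 (95% confidence interval -1.50 to -1.02, adjusted p = 4.86e-07 from limma). The changes of *Stat5a* and *Stat3* differed by 6.54 (standard error 0.09, exact permutation test as above, p = 0.00794, adjusted 0.00794). This p was likewise fixed by the opposite, non-overlapping moves of the genes. In the RefSeq gene table of assembly GRCm38.p6, *Stat5b*, *Stat5a* and *Stat3* follow each other on chromosome 11 with no other protein-coding gene between them, so the gene that rose lies between the 2 that fell.

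*Stat6* had the smallest change. STAT6 is best known for carrying signals of interleukins 4 and 13, in airway epithelium among other tissues. *Stat6* had log2 signals of 8.61, 8.40, 9.16, 8.99 and 8.68 on E17.5 replicates 1 to 5, against 8.11, 7.89, 7.72, 7.92 and 7.48 on E11.5 replicates 1 to 5. The groups did not overlap but came within 0.29 of each other. The mean was 8.77 ± 0.30 at E17.5 and 7.82 ± 0.24 at E11.5 (SD, n = 5 each), a 1.92-fold rise (log2 difference 0.94, 95% confidence interval 0.59 to 1.29, adjusted p = 0.000185 from limma). After quantile normalization between arrays the log2 difference was 0.55 (adjusted p = 0.00596).

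**Figure D1:**
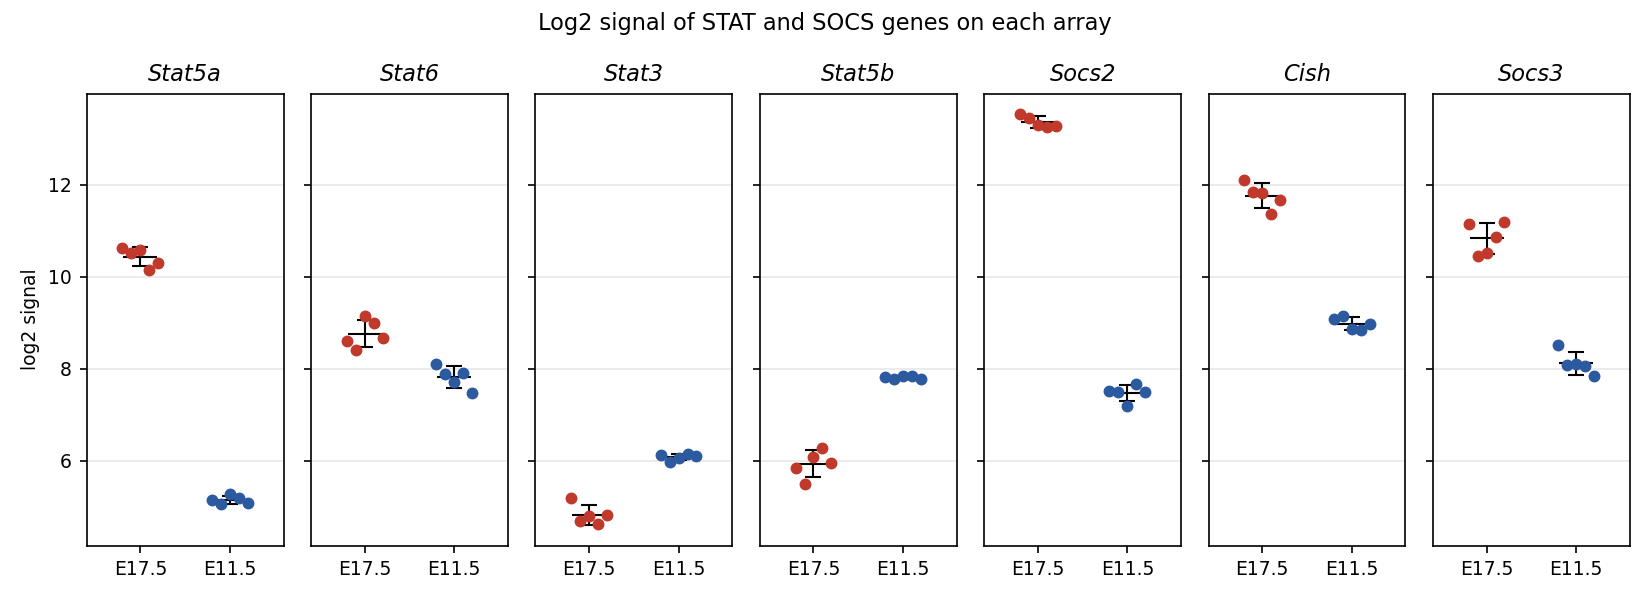
Log2 signal (y axis) of each STAT and SOCS gene on the 5 E17.5 arrays (red, left in each panel) and the 5 E11.5 arrays (blue, right), with a bar at the mean and whiskers of 1 SD. Red points are all above the blue ones for *Stat5a*, *Stat6*, *Socs2*, *Cish* and *Socs3* and all below them for *Stat3* and *Stat5b*, as for *Stat3* at 4.62 to 5.20 at E17.5 against 5.99 to 6.15 at E11.5. Levels of different genes cannot be compared across panels, since each has its own probe set.

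All 3 feedback inhibitor genes rose. *Socs2*, whose protein restrains growth hormone signalling and which is itself a target of STAT5, had log2 signals of 13.53, 13.45, 13.29, 13.24 and 13.26 on E17.5 replicates 1 to 5, against 7.51, 7.49, 7.19, 7.68 and 7.49 on E11.5 replicates 1 to 5. No other of the 7 genes had as wide a gap between the stages, 5.56 at the closest. The mean was 13.36 ± 0.13 at E17.5 and 7.47 ± 0.18 at E11.5 (SD, n = 5 each), a 59.1-fold rise (log2 difference 5.88, 95% confidence interval 5.65 to 6.11, adjusted p = 6.85e-13 from limma). It ranked 83 of 17813 genes. Its probe set carries the suffix _s, which marks probes that can match more than 1 transcript.

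*Cish* encodes CIS, the founding member of the SOCS family, which competes with STAT5 for docking sites on cytokine receptors. *Cish* had log2 signals of 12.10, 11.85, 11.82, 11.36 and 11.66 on E17.5 replicates 1 to 5, against 9.09, 9.15, 8.85, 8.85 and 8.97 on E11.5 replicates 1 to 5. The mean was 11.76 ± 0.27 at E17.5 and 8.98 ± 0.13 at E11.5 (SD, n = 5 each), a 6.84-fold rise (log2 difference 2.77, 95% confidence interval 2.49 to 3.06, adjusted p = 1.51e-09 from limma). The E17.5 arrays were lowest on replicate 4 and highest on replicate 1, and *Stat5a*, *Stat3* and *Socs2* had the same lowest and highest array.

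*Socs3* encodes the inhibitor that binds gp130 and its kinases and is a classical target of STAT3. *Socs3* had log2 signals of 11.13, 10.45, 10.51, 10.85 and 11.20 on E17.5 replicates 1 to 5, against 8.51, 8.08, 8.10, 8.05 and 7.84 on E11.5 replicates 1 to 5. The mean was 10.83 ± 0.34 at E17.5 and 8.12 ± 0.24 at E11.5 (SD, n = 5 each), a 6.56-fold rise (log2 difference 2.71, 95% confidence interval 2.34 to 3.09, adjusted p = 2.43e-08 from limma). Of the 7 genes *Socs3* had the widest SD among the E17.5 arrays. After quantile normalization the rises of *Cish* and *Socs3* were 2.23 and 2.21 on the log2 scale.

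The promoters of the feedback genes were searched for the palindromic STAT site TTCNNNGAA, which reads the same on both strands. Promoter windows ran from 250 bases before to 50 bases after a RefSeq start site (GRCm38.p6), and 6 of the 7 genes had one. The site was present in the windows of *Cish* and *Socs3* and in no window of *Stat3*, *Stat5a*, *Stat5b* or *Stat6*. It is in 8.3% of all 32851 windows, and 9.55% of the 27025 genes with a window hold it. A second pattern, TTC and GAA with 4 unspecified bases between them, which STAT6 is known to prefer, was in none of the windows of these 6 genes. It is in 6.95% of all windows and 8.01% of genes. Of the other SOCS genes 2 had a window, and 0 held either pattern. The windows of *Cish* and *Socs3* are printed because these genes rose and carry the site, which stands in capitals, 5′ to 3′ on the strand of the gene. *Cish* lies on the + strand at chr9:107296409-107296708 and holds TTCCTGGAA and TTCTTGGAA, which begin 0 and 11 bases downstream of the start site. *Socs3* lies on the - strand at chr11:117969317-117969616 and holds TTCTTAGAA, which begins at -154 relative to the start site.
Cish: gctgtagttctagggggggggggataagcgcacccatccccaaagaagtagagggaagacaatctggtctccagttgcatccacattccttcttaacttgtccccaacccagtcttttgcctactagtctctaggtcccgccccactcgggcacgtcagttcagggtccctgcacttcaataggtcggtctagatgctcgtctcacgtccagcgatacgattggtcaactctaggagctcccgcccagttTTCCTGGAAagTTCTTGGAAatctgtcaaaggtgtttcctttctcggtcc
Socs3: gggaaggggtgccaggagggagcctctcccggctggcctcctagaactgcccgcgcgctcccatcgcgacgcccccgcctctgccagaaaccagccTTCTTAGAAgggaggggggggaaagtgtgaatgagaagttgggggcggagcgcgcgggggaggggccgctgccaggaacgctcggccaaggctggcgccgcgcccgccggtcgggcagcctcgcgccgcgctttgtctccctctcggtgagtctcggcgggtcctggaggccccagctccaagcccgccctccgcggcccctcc
A match of letters does not show that a STAT protein was bound there in these cells.

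The rest of both families was read in the same way. Beside the 4 STAT genes above, *Stat2* and *Stat4* were read. *Stat2*, which acts in the interferon response, averaged 7.82 ± 0.19 at E17.5 and 6.66 ± 0.14 at E11.5 (SD, n = 5 each) and rose 2.23-fold (log2 difference 1.15, adjusted p = 1.2e-06 from limma). *Stat4*, which answers to interleukin 12 in lymphocytes, averaged 5.20 ± 0.24 at E17.5 and 6.74 ± 0.44 at E11.5 and had a log2 difference of -1.55 (adjusted p = 1.8e-05 from limma). Of these 6 STAT genes, 3 were higher and 3 were lower. Of the other SOCS genes, *Socs1* was not analysed here and none of the 4 measured rose. *Socs7* averaged 5.75 ± 0.35 at E17.5 and 7.97 ± 0.10 at E11.5 (log2 difference -2.23, adjusted p = 4.6e-08 from limma). *Socs4* averaged 6.06 ± 0.32 at E17.5 and 8.23 ± 0.12 at E11.5 (log2 difference -2.18, adjusted p = 3.7e-08). Both fell, and neither had overlapping arrays. *Socs5* and *Socs6* had log2 differences of 0.11 and 0.05, less than the SD of their arrays (adjusted p = 0.48 and 0.63 from limma), but of -0.48 and -0.53 after quantile normalization (adjusted p = 0.0039 and 6.6e-05). SOCS4 is known from work on the EGF receptor and SOCS7 from work on insulin signalling.

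Of the 4 Janus kinase genes, 3 were higher and 1 was lower. *Jak3*, the kinase of the common gamma chain receptors of lymphocytes, averaged 7.59 ± 0.24 at E17.5 and 5.25 ± 0.28 at E11.5 (SD, n = 5 each) and rose 5.09-fold (adjusted p = 3.3e-08 from limma). *Jak1*, which serves gp130 and interferon receptors in most cells, averaged 10.98 ± 0.13 at E17.5 and 8.96 ± 0.28 at E11.5 and rose 4.06-fold (adjusted p = 3.8e-08). *Tyk2* rose 1.86-fold on its brighter probe set, while its other probe set had a log2 difference of -0.22 (adjusted p = 0.10), so that this call depends on the probe set. *Jak2*, the kinase of the growth hormone, prolactin and erythropoietin receptors, averaged 8.04 ± 0.17 at E17.5 and 8.38 ± 0.11 at E11.5 (log2 difference -0.33, adjusted p = 0.011 from limma), and its arrays overlapped.

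Inhibitors outside the SOCS family went both ways. Of 9 measured, 4 were higher, 3 were lower and 2 did not pass, with a median log2 difference of -0.14 against 0.03 over all genes. *Sh2b3*, which encodes the adaptor LNK that restrains JAK2, rose 7.82-fold and *Ptpn2*, a phosphatase of JAK1 and STAT proteins, rose 4.59-fold. *Pias1*, which encodes a SUMO ligase, rose 2.98-fold and *Ptpn6*, the phosphatase SHP1 of blood cells, 2.51-fold. *Ptpn11* (the phosphatase SHP2), *Pias2* and *Pias3* fell, with log2 differences of -1.96, -1.61 and -1.33, and PIAS3 is known as an inhibitor of STAT3. After quantile normalization 5 of the 9 were lower and 4 higher.

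**Figure D2:**
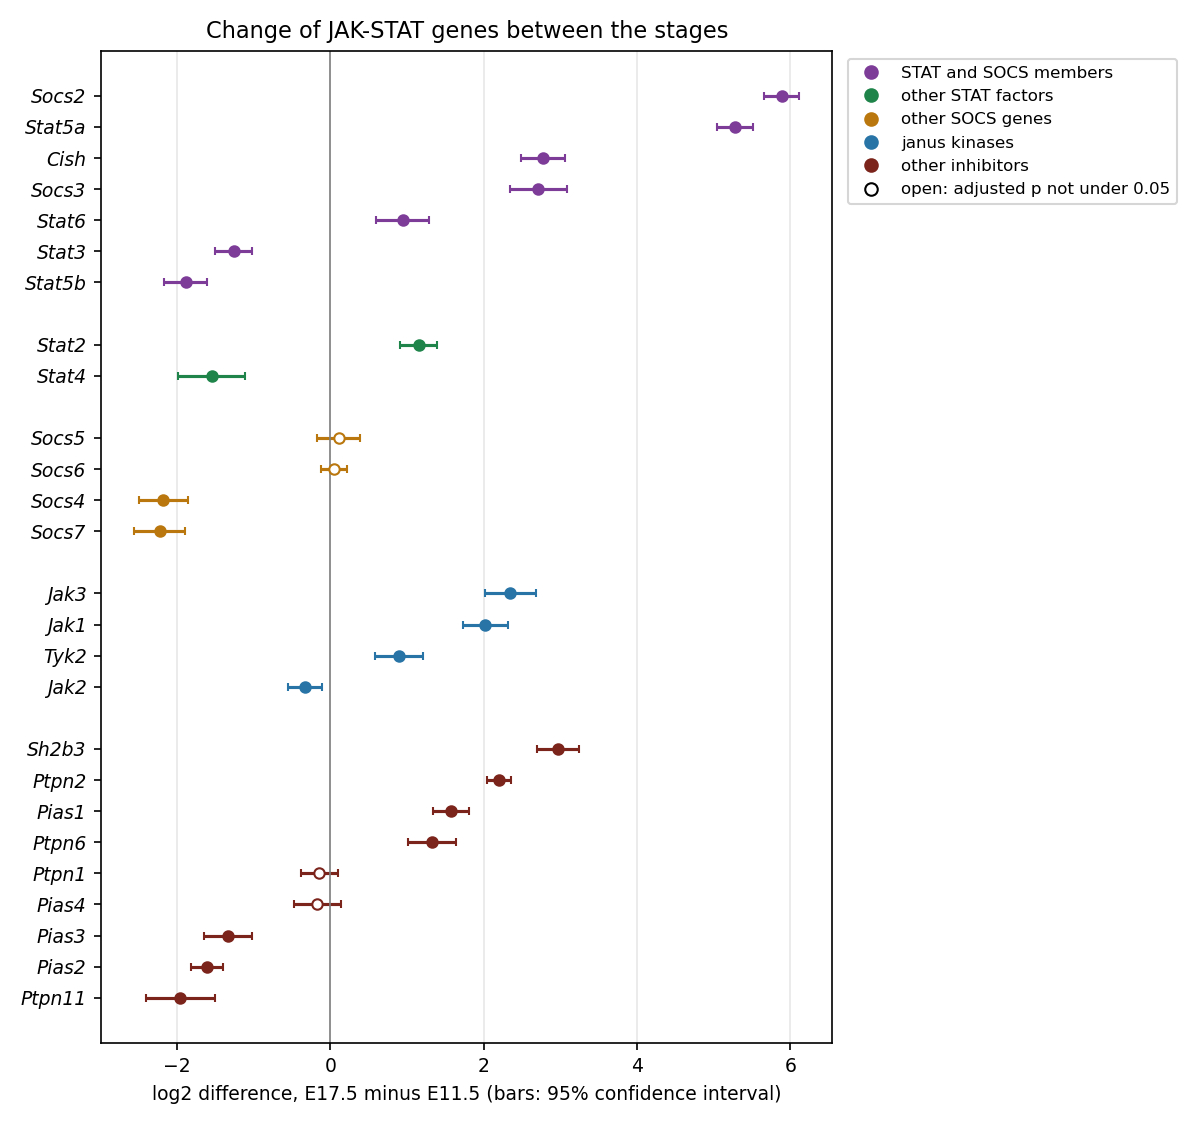
Log2 difference between E17.5 and E11.5 (x axis, points, with 95% confidence intervals) of the STAT and SOCS members, the other STAT and SOCS genes, the Janus kinases and other inhibitors, with open points for genes whose adjusted p was not under 0.05. *Socs2* and *Stat5a* lie furthest to the right, at 5.88 and 5.28, while *Socs4* and *Socs7* lie left of 0, at -2.18 and -2.23, and *Socs5* and *Socs6* have open points.

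Upstream of the STAT proteins, receptor genes were followed by the STAT they mainly use, and ligand genes as 1 list. Of 13 receptor genes that act mainly through STAT5, 8 were higher and none was lower at an adjusted p under 0.05 in limma, with a median log2 difference of 0.70. *Csf2rb*, the beta chain of the receptors for GM-CSF and interleukins 3 and 5, rose 12.4-fold, and its mouse relative *Csf2rb2* 5.97-fold. *Ghr*, the growth hormone receptor, averaged 11.83 ± 0.19 at E17.5 and 9.08 ± 0.21 at E11.5 (SD, n = 5 each) and rose 6.73-fold (adjusted p = 9.6e-10 from limma). *Il7r*, a receptor of lymphoid cells, averaged 6.16 ± 1.17 at E17.5 and 3.46 ± 0.16 at E11.5 and rose, with a wide spread at E17.5 and a dim signal at E11.5.

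Of 14 receptor genes that act mainly through STAT3, 8 were higher and 1 was lower, with a median of 0.43. The oncostatin M receptor gene *Osmr*, dim at E11.5, averaged 9.14 ± 0.25 at E17.5 and 3.94 ± 0.11 at E11.5 and rose, and *Il10rb* rose 10.9-fold and the LIF receptor gene *Lifr* 2.81-fold. *Il6st*, the gp130 gene itself, averaged 6.23 ± 0.45 at E17.5 and 7.87 ± 0.16 at E11.5 and fell, with a log2 difference of -1.64 (adjusted p = 7.3e-06 from limma). Of 3 receptor genes of the STAT6 branch, *Il4ra*, the shared chain of the interleukin 4 and 13 receptors, rose 11.1-fold (9.27 ± 0.36 at E17.5 and 5.80 ± 0.14 at E11.5, adjusted p = 1.1e-09 from limma). Its partner *Il13ra1* averaged 3.85 ± 0.14 at E17.5, where it was dim, and 8.62 ± 0.08 at E11.5. It fell with a log2 difference of -4.78 (adjusted p = 9.6e-13 from limma), and *Il13ra2* had one of -0.12 (adjusted p = 0.37).

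Among 21 ligand genes, 9 rose and 2 fell, with a median log2 difference of 0.24. *Il6* and *Osm*, which act through gp130, rose. *Il6* averaged 7.81 ± 0.86 at E17.5 and 3.25 ± 0.23 at E11.5 and *Osm* 9.43 ± 0.63 at E17.5 and 4.94 ± 0.15 at E11.5, so that both, and *Il6* most, were dim at E11.5. *Csf2*, which encodes GM-CSF, a cytokine that alveolar macrophages need to clear surfactant, averaged 10.29 ± 0.38 at E17.5 and 6.51 ± 0.40 at E11.5 (SD, n = 5 each) and rose 13.8-fold (adjusted p = 9.8e-09 from limma). *Tslp*, an epithelial cytokine, rose 10.9-fold. *Il15* and *Gh* fell, with log2 differences of -1.74 and -0.47. *Il2*, *Il3*, *Il5*, *Il9*, *Il10*, *Il13*, *Il21* and *Lep*, named after their values were seen, did not pass the test, with means of 3.42 to 4.15 (E17.5) and 3.27 to 4.18 (E11.5) in a table whose lowest value was 2.47. Over all 115 genes in the pathway lists besides the 7, with the STAT target lists below included, 65 were higher and 18 were lower. Of all 17813 genes, 6568 (36.9%) were higher and 5609 (31.5%) were lower.

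Known targets of each STAT, gathered mostly from work in liver, lymphoid cells, macrophages and mammary gland, were read as counts beside the STAT genes. Of 22 STAT3 targets, 16 were higher and 2 were lower, with a median log2 difference of 2.29. *Lcn2*, which encodes an iron-scavenging acute phase protein, rose (11.87 ± 0.81 at E17.5 and 4.25 ± 0.30 at E11.5, where it was dim, SD, n = 5 each, adjusted p = 7.1e-10 from limma). *Hp* (haptoglobin) rose 43.7-fold and *Cebpd*, a transcription factor of the acute phase, 27.3-fold. *Fos*, also an immediate early gene, rose 151-fold. *Pim1*, a kinase gene induced by both STAT3 and STAT5, fell with a log2 difference of -2.22, and the acute phase gene *Saa1* with one of -0.84. Without *Fos* and *Junb*, which also stand in the immediate early list, 14 of the remaining 20 rose and 2 fell, as counted after the data were seen. *Stat3* itself was lower in the same samples.

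The targets of STAT5 were split. Of 11 measured, 4 were higher (*Bcl6*, *Osm*, *Bcl2l1* and *Igfals*) and 5 were lower (*Ccnd1*, *Csn2*, *Ccnd2*, *Pim1* and *Igf1*), with a median of -0.03 (0.0057 after quantile normalization). *Bcl6* encodes a repressor that STAT5 silences in lymphocytes and liver. It averaged 11.42 ± 0.26 at E17.5 and 6.86 ± 0.13 at E11.5 (SD, n = 5 each) and rose 23.6-fold (adjusted p = 1.7e-11 from limma). The survival gene *Bcl2l1* rose 3.64-fold and *Igfals*, which encodes a carrier of IGF1 in blood, 1.49-fold. The cyclin gene *Ccnd1* averaged 7.57 ± 0.33 at E17.5 and 11.99 ± 0.17 at E11.5 and fell (log2 difference -4.41, adjusted p = 1.0e-10 from limma), as did *Ccnd2* (9.69 ± 0.14 at E17.5 and 12.19 ± 0.19 at E11.5, adjusted p = 8.8e-10). *Igf1*, the growth factor gene that STAT5B controls in liver, and *Csn2*, a milk casein gene, had log2 differences of -1.90 and -2.63. *Csn2* was dim at E17.5. *Socs2* and *Cish*, which are also STAT5 targets, were left out of this list and were among the 7 genes.

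Of 15 STAT6 targets, 12 were higher and 1 was lower, with a median of 0.99. *Retnla*, a secreted protein gene of alternatively activated macrophages and of lung epithelium, averaged 13.49 ± 0.24 at E17.5 and 5.35 ± 0.47 at E11.5 (SD, n = 5 each) and rose 282-fold (adjusted p = 8.2e-12 from limma). *Chil3*, a chitinase-like protein gene of macrophages, rose to 5.30 to 8.42 on the E17.5 arrays, against a mean of 3.56 at E11.5, where it was dim. The chemokine genes *Ccl11* (7.12 ± 0.74 at E17.5 and 4.36 ± 0.24 at E11.5, where it was dim) and *Ccl17* (8.78 ± 0.57 at E17.5 and 6.01 ± 0.42 at E11.5) rose. *Arg1*, another marker of such macrophages, fell with a log2 difference of -1.32. Without *Mrc1*, which also stands in the leukocyte list, 11 of 14 were higher, a count added after the data were seen.

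**Figure D3:**
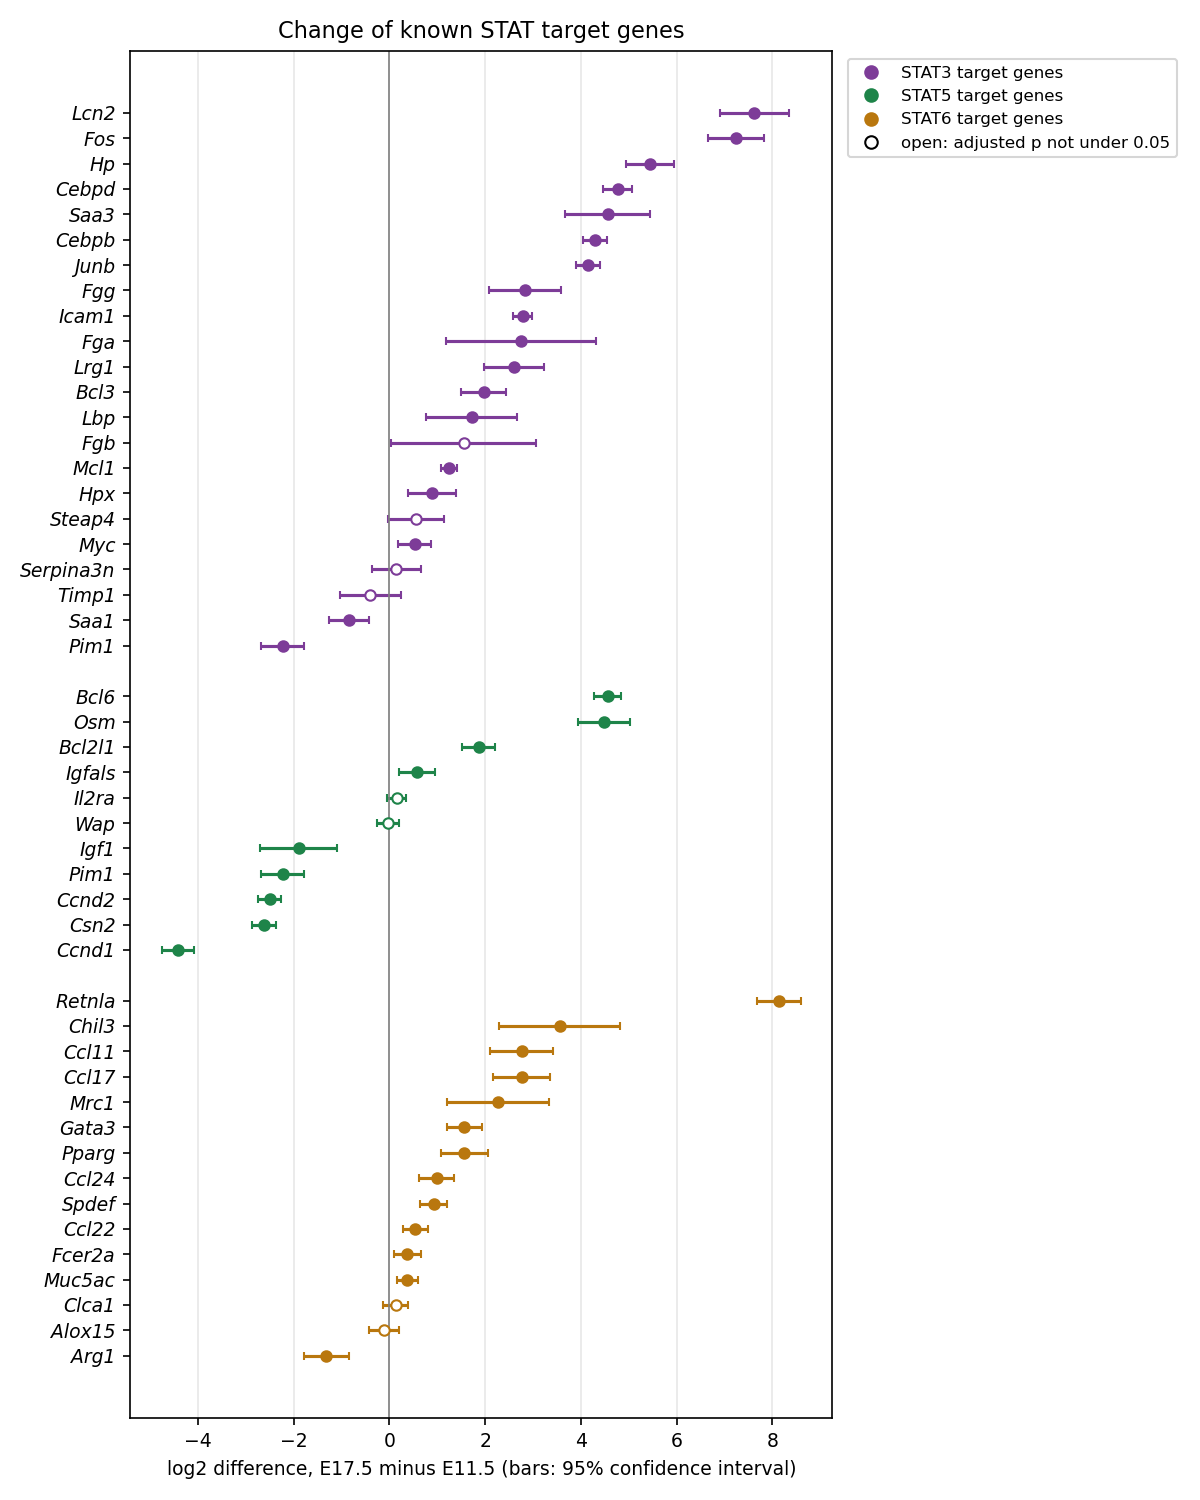
Log2 difference between E17.5 and E11.5 (x axis, points, with 95% confidence intervals not adjusted for the number of genes) of known targets of STAT3, STAT5 and STAT6, with open points for genes whose adjusted p was not under 0.05. Targets of STAT3 and STAT6 lie mostly right of 0 (16 of 22 and 12 of 15 higher), and those of STAT5 lie on both sides (4 higher and 5 lower of 11).

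Array by array, *Socs3* was highest at E17.5 on replicates 5 and 1, at 11.20 and 11.13, where the immediate early list mean was 12.94 and 13.03. It was lowest on replicates 2 and 3, at 10.45 and 10.51, where that list mean was 12.80 on both. The pan-epithelial list mean was also highest on replicates 1 and 5 (12.91 and 12.73) and lowest on 2 and 3 (12.62 and 12.65). So was that of the tip markers, at 9.79 and 9.65 on replicates 1 and 5 and 9.29 and 9.43 on 2 and 3. This order of arrays was thus not particular to the immediate early genes, and its cause was not tested. The leukocyte and macrophage list mean was lowest on replicates 4 and 5, and highest on replicate 3, at 9.54. *Stat5a* was also lowest on replicates 4 and 5, and so was the alveolar type 2 list, at 12.14 and 12.25. *Socs2*, which spread over only 0.29 at E17.5, was at 13.24 and 13.26 on these replicates, against 13.29 to 13.53 on the other 3. The differences within a stage were small beside those between stages for each of these genes.

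**Figure D4:**
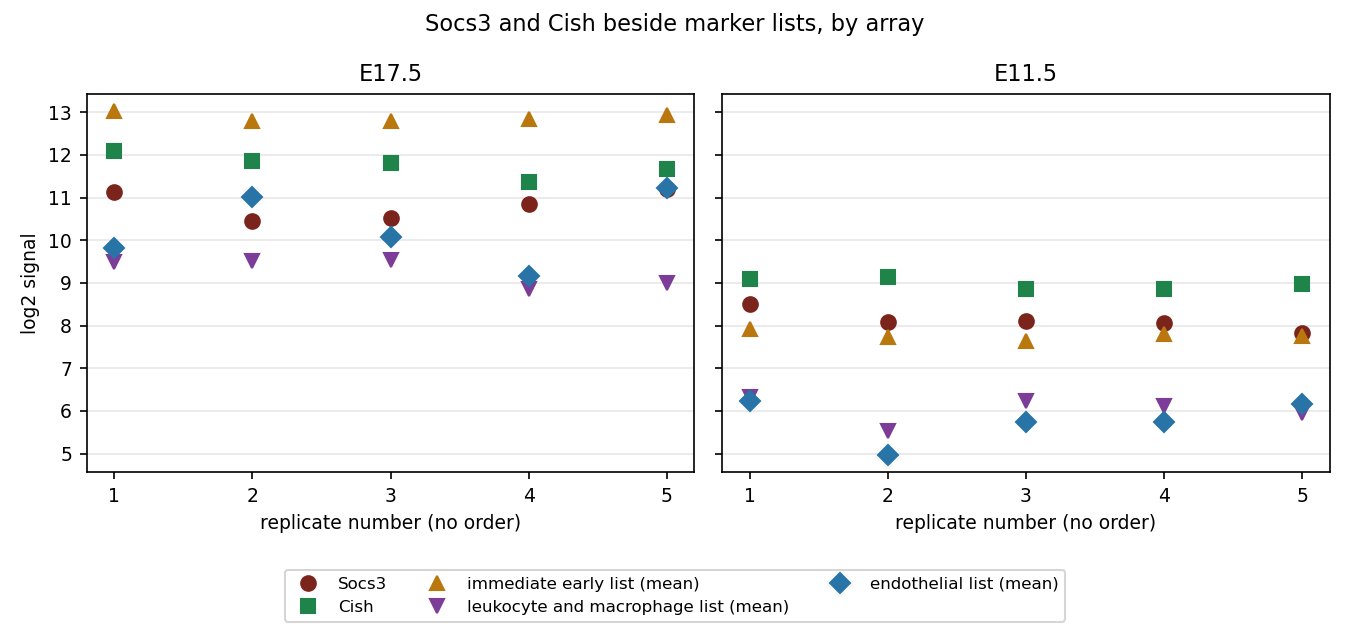
Log2 signal (y axis) of *Socs3* and *Cish* and mean log2 signal of the immediate early, leukocyte and macrophage, and endothelial marker lists on each array (x axis, replicate number, which has no order) at E17.5 (left) and E11.5 (right). Both genes and all 3 lists are higher on every E17.5 array than on any E11.5 array, with *Socs3* at 10.45 to 11.20 (E17.5) and 7.84 to 8.51 (E11.5).

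As a description, the genes of the whole table whose signals over the 10 arrays most resembled each member were taken by Pearson correlation, which here mainly reflects the step between the stages and carries no test. For *Socs2* they were *Dab2ip* (r = 0.999) and *Cebpa* (r = 0.999), and C/EBPα is a transcription factor of alveolar type 2 cells. For *Stat5a* they were *Mgst1* and *Uap1l1* (r = 1.00 each). For *Cish* they were *P2rx4* (r = 0.999) and *Inpp5k* (r = 0.998), and for *Socs3* *Clptm1* (r = 0.997) and *Rhof* (r = 0.996). For *Stat5b* they were *Dcakd* (r = 0.998) and *Socs7* (r = 0.998), another member of the SOCS family that fell. For *Stat3* they were *Fut4* (r = 0.997) and *Oprl1* (r = 0.994), and for *Stat6* *Bmi1* (r = 0.991) and *Ticam1* (r = 0.985).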

How the data were processed

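RNA of E17.5 and E11.5 lung tip cells was amplified and labelled with NuGEN kits by the authors and hybridised to Affymetrix mouse genome arrays. The deposited values are log2 signals, 1 column per array (10 arrays, 21204 probe sets, 2.47 to 15.03). The authors analysed the arrays with Bioconductor in R, but the package, background correction, normalization and choice of probe sets are not given in the sources read here. Probe sets that name 1 gene in the platform annotation (17981) were used, with the brightest over all arrays per gene (17813 genes). Entrez identifiers of 17832 were found in the RefSeq table of GRCm38.p6, which changed 0 symbols.

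Linear models (limma 3.58.1 under R 4.3.3, functions lmFit and eBayes) gave E17.5 minus E11.5 for each gene, with p-values adjusted by Benjamini-Hochberg over all genes. SD is over arrays. The fit was tested on simulated data. No depth exists for arrays, and their number limits the precision. Members and lists were chosen with earlier results of these data known. Named were the 7 members, all measured Janus kinase, other STAT and other SOCS genes, up to 4 of the largest called changes in each other pathway list (all called genes of a direction with 5 or fewer), up to 3 of each marker list, and the 2 genes most like each member. Some others, among them *Ptprc*, *Sox9* and *Lpcat1*, were named outside this rule. Promoter windows came from RefSeq (GRCm38.p6), and *Socs2* had none. Alternatives were quantile normalization, median centring, array weights, trend and robust moderation, a block for the replicate number, the dimmest probe set per gene, a filter on dim genes, and leaving out each array. Plots were made with matplotlib 3.10.9 (Python 3.11.15).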

Additional observations from a re-analysis of the deposited data

Results flagged for a closer look

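A single array lay away from its group, more than 0.71 of the whole range from its nearest neighbour, for 10 of the 116 sets of 5 values examined, and chance gives about 5.8. None of these was in a group of the 7 STAT and SOCS genes. On E17.5 replicate 4, the log2 signal of *Hp* was 11.27 (nearest 12.28) and that of *Arg1* 6.19 (nearest 7.04), and on E17.5 replicate 3 *Csn2* had 3.91 (nearest 3.48). On E11.5 replicate 1, *Jak1* had 9.44 (nearest 8.93), *Tyk2* 9.08 (nearest 8.57) and *Pias3* 8.58 (nearest 8.90). On E11.5 replicate 3, *Gh* had 5.32 (nearest 4.97) and *Saa1* 6.80 (nearest 5.87). On E11.5 replicate 4, *Igfals* had 5.16 (nearest 5.85), and on E11.5 replicate 5 *Lcn2* had 4.79 (nearest 4.17).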

How the results depend on the processing

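The 7 STAT and SOCS genes kept their direction and their call in every alternative that measured them. Leaving out each array gave log2 differences of 5.23 to 5.35 for *Stat5a*, -1.97 to -1.77 for *Stat5b*, -1.35 to -1.21 for *Stat3*, 0.84 to 1.03 for *Stat6*, 5.81 to 5.94 for *Socs2*, 2.69 to 2.87 for *Cish* and 2.62 to 2.81 for *Socs3*. Median centring moved the median of all genes from 0.03 to -0.10. Dim genes (mean under 7.18) included *Stat3* and *Stat5b*, so without them 5 members were left and 0 were lower. That filter also left 0 lower among 1 other STAT, 2 other SOCS, 2 STAT3-branch receptor, 1 STAT6-branch receptor and 12 STAT3 target genes. It left 4 higher and 1 lower of 6 ligands, 2 higher of 2 STAT3-branch and 4 higher of 4 STAT5-branch receptors, 3 lower of 6 STAT5 targets and 4 higher of 5 STAT6 targets, because fewer genes were tested. After quantile normalization all 4 other SOCS genes and 5 other inhibitors were lower, with *Socs5* at -0.48 and *Socs6* at -0.53 (-0.0239 and -0.0847 after median centring), and the cause was not tested. The dimmer probe set of *Tyk2* gave -0.22. Same-numbered arrays shared only a number (correlations of their deviations -0.29 to 0.07, 0 of 5 best with their own number). With the replicate number as a block, 5 members were still higher and 2 lower, and it changed no list count by over 1.5 times. The contrasts of *Stat5a* with *Stat5b* (7.16) and *Stat3* (6.54) then had p = 0.0625, the smallest that 32 arrangements within numbers allow (exact permutation test). These p-values too were fixed by the opposite, non-overlapping moves of the genes.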
